A study of Mus musculus with 2 samples.

Results

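The transcripts described here are from sorted mouse bone marrow cells. They encode the serine/arginine-rich (SR) proteins, the heterogeneous nuclear ribonucleoproteins (hnRNPs) and the core proteins of the spliceosomal small nuclear ribonucleoproteins (snRNPs). Others encode proteins of the SF3A and SF3B complexes, and U2AF with the related Zrsr proteins. All were taken by symbol: Srsf with a number, any symbol starting with Hnrnp, Snrp or U2af, Sf3a or Sf3b with a digit, and Zrsr1 and Zrsr2. Pseudogene symbols and rows that name several genes at once were left out. This gave 51 genes of 35798 rows: 11 SR, 17 hnRNP, 11 snRNP, 8 SF3A or SF3B and 4 U2AF or Zrsr genes. Of these, 50 reached 1 FPKM (fragments scaled by transcript length and library size) in at least 1 library. Srsf12, which encodes an SR-type protein, was listed at 0 in both libraries.

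There was 1 library per genotype. Animals with the genotype Nes-gfp;Mx1-cre;JAK2-V617F gave the JAK2 V617F library, and Nes-gfp littermates gave the control. All were adults of the C57BL/6 background, and the labels list pIpC for both libraries. This double-stranded RNA analogue induces interferon, and interferon switches on the Mx1 promoter that drives Cre in blood cells and several other tissues. Cells of both genotypes were collected 6 weeks after this treatment. Cells were sorted as CD45- CD31- Ter119- Nes-GFP+, with GFP driven by nestin regulatory sequence, and 3 animals were pooled per library. Since the control carries neither Mx1-cre nor JAK2 V617F, effects of the recombinase and of the kinase cannot be told apart. Each ratio below compares 2 pools and has no replicate error and no test between genotypes. The 95% intervals cover the counting of fragments in these 2 libraries only.

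Pre-mRNA splicing is carried out by the spliceosome, which is built from snRNPs on each intron. SR proteins bind exons and recruit the machinery to nearby splice sites, and hnRNPs coat the transcript and often act against them, so that the balance of both classes shapes exon choice. U2AF recognises the end of the intron, and SF3A and SF3B anchor the U2 snRNP at the branch point. Genes of this machinery (SF3B1, SRSF2, U2AF1 and ZRSR2 in humans) are among those recurrently mutated in myeloid neoplasms, and most of them are active in every cell type.

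The promoters of the 2 transcripts past 2-fold, Sf3a2 and Srsf4, and of the transcript with the largest negative log2 ratio, Sf3a1, are shown because the largest differences of the set lie in them. Each runs 5′ to 3′ over 300 bases, from 250 before to 50 after the annotated start, on the plus strand of build GRCm38.p6 as given by RefSeq. Capitals mark matches, on either strand, to the GC box GGGCGG, the CCAAT box, the TATA box TATAAA, the ETS factor core CCGGAAG, the E-box CACGTG, the YY1 letters AAGATGGC, or the NRF1 letters, which are GCGC on both sides of any 2 bases. Where matches overlap, their capitals run together.
Sf3a2, chr10:80798485-80798784: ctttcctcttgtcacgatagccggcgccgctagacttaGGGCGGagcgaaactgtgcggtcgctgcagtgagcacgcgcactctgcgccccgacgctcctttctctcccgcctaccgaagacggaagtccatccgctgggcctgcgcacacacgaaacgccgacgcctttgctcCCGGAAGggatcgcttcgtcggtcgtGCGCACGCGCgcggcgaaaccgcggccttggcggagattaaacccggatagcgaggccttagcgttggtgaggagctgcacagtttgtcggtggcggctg
Srsf4, chr4:131873387-131873686: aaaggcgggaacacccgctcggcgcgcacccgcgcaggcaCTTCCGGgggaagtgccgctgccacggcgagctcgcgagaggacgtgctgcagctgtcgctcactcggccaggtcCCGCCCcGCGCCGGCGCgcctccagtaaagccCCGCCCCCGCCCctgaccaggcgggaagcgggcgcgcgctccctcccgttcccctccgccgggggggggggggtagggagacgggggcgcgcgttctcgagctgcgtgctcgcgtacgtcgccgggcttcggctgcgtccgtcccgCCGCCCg
Sf3a1, chr11:4160104-4160403: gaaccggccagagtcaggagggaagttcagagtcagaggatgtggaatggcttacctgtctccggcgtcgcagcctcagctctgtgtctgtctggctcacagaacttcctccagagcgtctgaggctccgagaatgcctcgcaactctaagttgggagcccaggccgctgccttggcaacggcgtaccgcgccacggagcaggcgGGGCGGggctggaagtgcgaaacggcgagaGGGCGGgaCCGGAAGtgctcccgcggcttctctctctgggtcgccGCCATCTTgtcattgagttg
Each of the 3 windows held a GC box and the ETS core. NRF1 letters were found in those of Sf3a2 and Srsf4, and YY1 letters in that of Sf3a1. NRF1 letters were also in the promoters of Snrpd2, Snrpb2, Srsf2, Hnrnpab and Srsf6, whose log2 ratios were -0.48, -0.46, -0.36, -0.20 and -0.16. The remaining carriers, Hnrnpa3, U2af1 and Srsf9, were at 0.003, 0.15 and 0.24. A match is a description of the sequence and does not show binding. RefSeq promoters were matched for 44 of the 50 transcripts at 1 FPKM or more, taking the first listed start of each gene. The ETS core was in 15 of these 44 (34.1%), in 17.4% of 10012 expressed protein-coding genes and in 9.12% of all 27025 promoters of this length. CCAAT was in 22 of 44 (50%), against 38.8% of expressed protein-coding genes and 37.9% of all promoters, and the NRF1 letters in 10 of 44 (22.7%), against 13.5% and 6.43%. A GC box was found in 32 of 44 (72.7%), against 63.6% and 35.9%. TATAAA was in 5 of 44 (11.4%, against 7.66% and 14.2%), CACGTG in 4 (9.09%, against 9.89% and 7.24%) and AAGATGGC in 2 (4.55%, against 4.52% and 2.88%). The median window held 24 CpG dinucleotides, against 20 in expressed protein-coding genes and 7 over all promoters.

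As checks of the samples, Jak2 was at 29.9 FPKM in the JAK2 V617F and 24.5 FPKM in the control library, a row that does not separate the transgene from the mouse gene, and Nes was at 3.00 and 4.84 FPKM. The estimated number of mapped fragments was 6290000 in the JAK2 V617F and 5430000 in the control library. All 10 mesenchymal stromal markers of a list made for this sort were above 0 in both libraries, with summed levels of 987 FPKM in the JAK2 V617F and 1219 FPKM in the control library. Markers that the sort should have removed were present too. The summed level of 13 erythroid markers was 2938 FPKM in the JAK2 V617F and 4686 FPKM in the control library, of 10 pan-leukocyte markers 568 and 431 FPKM, of 12 neutrophil markers 2609 and 2541 FPKM, and of 8 endothelial markers 46.4 and 37.4 FPKM. Osteoblast markers summed to 2964 and 5886 FPKM, chondrocyte markers to 1898 and 343 FPKM (of which Prg4 alone made 1234 and 20.1 FPKM), and 12 proliferation genes to 1506 and 1925 FPKM, in the same order. None of the markers with a row was at 0 in either library. The part of these cell types in the values below was not tested, and fewer cells of a type and less RNA per cell cannot be told apart in pooled RNA.

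The families were abundant in both libraries and close to each other between them. The median level over the 50 transcripts was 71.8 FPKM in the JAK2 V617F and 84.1 FPKM in the control library, against 12 and 12.7 FPKM over 12482 protein-coding genes at 1 FPKM or more. Their summed level was 7859 FPKM in the JAK2 V617F and 8677 FPKM in the control library, 1.78% and 1.84% of the sum over protein-coding genes. Of the sum over all rows this was 0.961% and 0.938%, so which library held the larger share depended on the rows summed. In both libraries 48 of the 50 lay above the median protein-coding gene, Snrpc and Zrsr1 being the 2 exceptions, and 27 lay above the 90th percentile. The order of levels was much the same in both (Spearman's rho 0.96 across the 50 genes, a description of 2 libraries processed together).

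Of the 50 transcripts, Sf3a2 and Srsf4 were past 2-fold upward in the JAK2 V617F library and 0 downward, on the scale of log2((JAK2 V617F FPKM + 1)/(control FPKM + 1)), together 2 of 50 or 4%. Over all 15425 rows at 1 FPKM or more, 13.7% were past 2-fold upward, 11.3% downward and 25% in either direction. Over the 12482 protein-coding genes these shares were 9.99%, 8.72% and 18.7%, and over 9434 of them between the lowest and the highest level of the set 5.73%, 7.14% and 12.9%. Low rows vary most, so the nearest background is the 1999 protein-coding genes whose level lies in the interquartile range of the set. Of these, 1.4% were past 2-fold upward, 4.3% downward and 5.7% in either direction. The share of the set past 2-fold was thus near that of genes of similar level. At 1.5-fold, Snrpc and Sf3b5 joined upward and Sf3a1 and U2af2 downward, 6 of 50 in all (12%). Of all rows 22.2% were past 1.5-fold upward, 21.3% downward and 43.6% in either direction, and of the 1999 genes 5.25%, 15.8% and 21.1%. The median log2 ratio was -0.11, against -0.03 over all rows and -0.14 over the 1999 genes, with 17 members above 0 and 33 below. Those below were 66% of the set, near the 64.9% of the 1999 genes, and 51.8% of all rows were below 0. Counting error alone left 29 of the 50 intervals clear of 1, 8 above and 21 below it, as deposited. This share was not computed for other genes, so nothing particular to the set can be read from it. After rescaling to the same sum of FPKM, the log2 ratios of 28 members lay outside their own interval. With the median of protein-coding genes this held for 15, and with a trimmed mean for 5. The direction depended on the scaling. Rescaling to the same sum of FPKM adds 0.18 to every log2 ratio before the pseudocount. With it 31 were above 0 and 19 below, and the median was 0.066. With the median of protein-coding genes 23 were above and 27 below (median -0.017), and with a trimmed mean 21 and 29 (median -0.043).

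**Figure D1:**
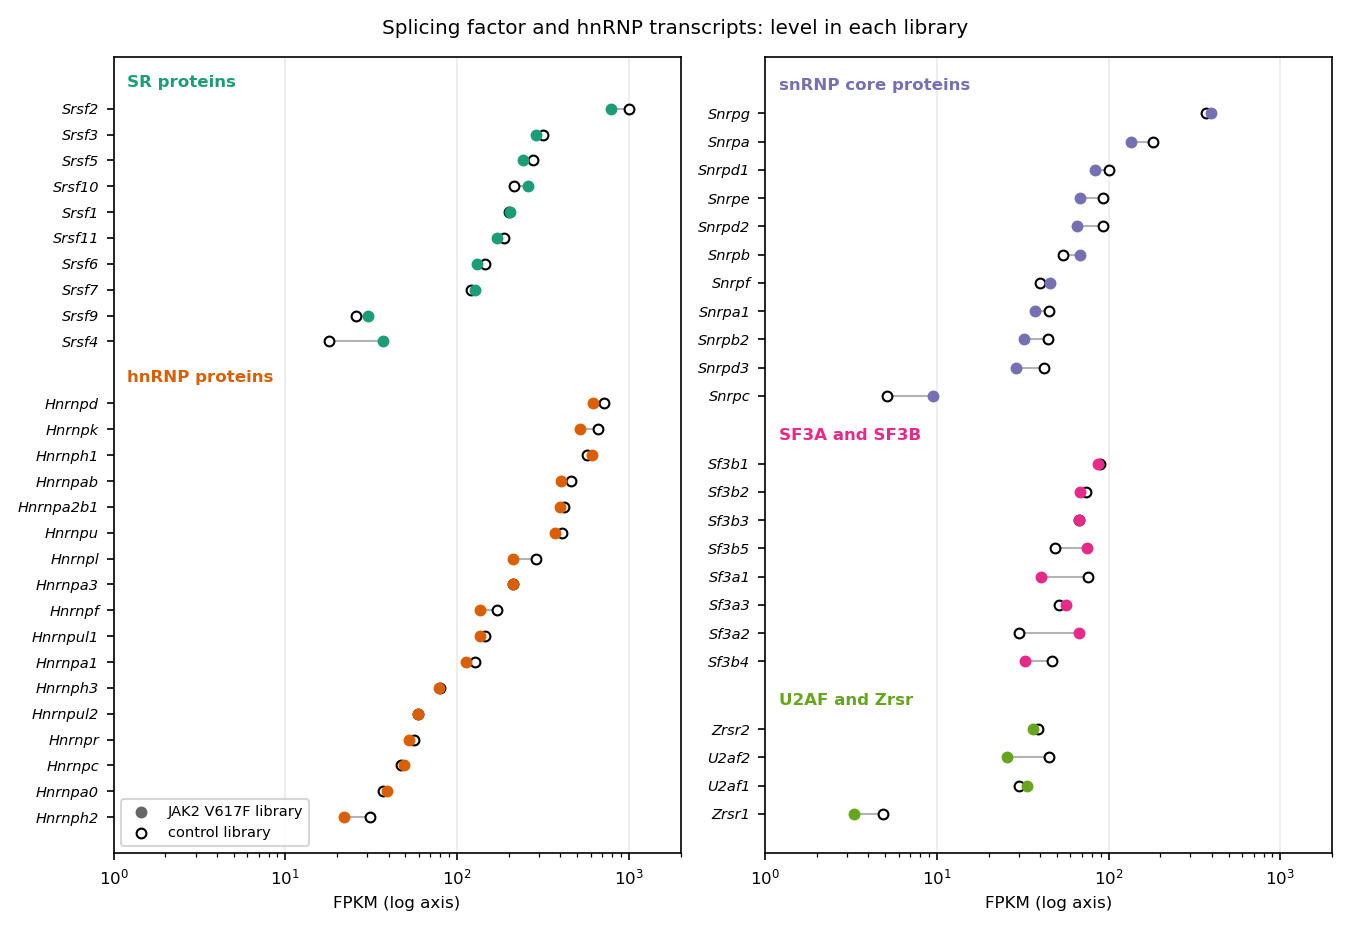
Level (FPKM, log axis) of each of the 50 transcripts in the JAK2 V617F library (filled) and the control library (open), by family and ordered by mean level. Most pairs of points nearly coincide, and the widest gaps are those of Sf3a2, Srsf4, Sf3a1, U2af2 and Snrpc.

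SR proteins held the highest transcript of the set and 1 of the 2 past 2-fold. Srsf2, an SR protein of nuclear speckles that binds exonic enhancers, was at 783 FPKM in the JAK2 V617F and 1006 FPKM in the control library. It was lower in the JAK2 V617F library by 0.36 on the log2 scale (log2 ratio -0.36), with a ratio of 0.779 (counting interval 0.751 to 0.807). It was the most abundant of all 50 in both libraries. Its exons overlap those of Mettl23 and Mfsd11 on the opposite strand over 25.3% of their length, and the row of those genes was at 31.4 FPKM in the JAK2 V617F and 36.6 FPKM in the control library.

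Srsf4, an SR protein with a long arginine/serine domain, was at 37.0 FPKM in the JAK2 V617F and 17.9 FPKM in the control library, a log2 ratio of 1.01. The ratio of the FPKM values was 2.07 (counting interval 1.75 to 2.45), from an estimated 486 and 203 fragments. Srsf4 ranked 40th of the 51 in the JAK2 V617F library and 48th in the control. Its row lies at chr4:131873617-131920029 (GRCm38) on the plus strand, and 43.0% of its exonic bases overlap Gm12992, an opposite-strand transcript. The row holding Gm12992 was at 24.1 FPKM in the JAK2 V617F and 27.2 FPKM in the control library. The labels do not state that strand was kept, so reads of the overlap could have been counted for either gene.

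Other SR transcripts lay within 2-fold. Srsf10, whose protein represses splicing when dephosphorylated, was at 257 FPKM in the JAK2 V617F and 214 FPKM in the control library (ratio 1.2, counting interval 1.14 to 1.27). Srsf1, the prototype of the class, was at 203 and 200.5 FPKM in that order, and Srsf7, which with Srsf3 acts as an adaptor for mRNA export, at 128 and 120.0 FPKM. Srsf3 itself was at 287 FPKM in the JAK2 V617F and 317 FPKM in the control library. The Srsf4 relatives Srsf5 and Srsf6 and the neural exon regulator Srsf11 lay slightly below 0 as deposited. Srsf5 was at 243 and 277 FPKM, Srsf6 at 130.2 and 146 FPKM, and Srsf11 at 171 and 187 FPKM in the same order. Srsf9, a close relative of Srsf1 and the lowest SR transcript after Srsf4 in mean level, was at 30.5 FPKM in the JAK2 V617F and 25.6 FPKM in the control library. Of the 10 SR transcripts at 1 FPKM or more, 5 were above 0 and 5 below, and their median log2 ratio of -0.06 was above 0 under each of 3 rescalings (0.010 to 0.12). Many SR genes switch exons that carry early stop codons, which sends part of their own transcripts to nonsense-mediated decay. GENCODE vM21 lists such a transcript for 9 of the 10, against 28.2% of expressed protein-coding genes and 34.8% of the 1999 genes above, most of which are lower in level than the SR transcripts. An FPKM row adds productive and such transcripts together, and they were not separated here.

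The hnRNP transcripts differed little between the libraries. None of the 17 passed 1.5-fold, against 21.1% of the 1999 genes and 43.6% of all rows in either direction. The SD of their log2 ratios was 0.17, against 0.39 over the 50. Level moves with this: the 21 members of any family with a mean of at least 100 FPKM had an SD of 0.19. Levels ran from 22 (Hnrnph2) to 621 FPKM (Hnrnpd) in the JAK2 V617F library and over the same 2 genes from 31 to 719 FPKM in the control. Hnrnpd encodes AUF1, which binds AU-rich elements and governs mRNA decay. Hnrnpk, a poly(C)-binding protein, was at 521 FPKM in the JAK2 V617F and 665 FPKM in the control library (ratio 0.783, counting interval 0.744 to 0.824). Hnrnpl, which binds CA-rich sequence, was at 211 and 286 FPKM in that order (ratio 0.737, counting interval 0.697 to 0.780), and Hnrnpf, a binder of G-rich tracts, at 135 and 170.1 FPKM. Of Hnrnpf, 66.2% of 31-base words also occur in transcripts of other genes, among them 7 pseudogenes. For Hnrnpk this share was 21.1%.

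Hnrnph1, a close relative of Hnrnpf, was at 609 FPKM in the JAK2 V617F and 574 FPKM in the control library and so lay slightly above 0 (log2 ratio 0.09). Its X-linked paralog Hnrnph2 was at 22 and 31 FPKM in the same order (ratio 0.710, counting interval 0.589 to 0.855), and Hnrnph3 at 78.3 and 79.5 FPKM. Hnrnph2 was thus at 0.0361 of the level of Hnrnph1 in the JAK2 V617F and 0.0540 in the control library. The A/B class, which packages nascent transcripts and with Hnrnpa1 represses exons, showed little difference. Hnrnpa2b1 was at 397 FPKM in the JAK2 V617F and 417 FPKM in the control library, Hnrnpa1 at 113 and 127 FPKM, Hnrnpa3 at 213 and 212 FPKM, Hnrnpa0 at 39.1 and 37.2 FPKM, and Hnrnpab at 403 and 463 FPKM. Hnrnpa1 and Hnrnpa3 share sequence with 25 and 46 annotated pseudogenes, so their rows could have lost or gained reads. Exons of Hnrnpab overlap Phykpl on the opposite strand over 29.1% of their length.

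Hnrnpc, which binds uridine tracts and keeps cryptic exons out, was at 48.8 FPKM in the JAK2 V617F and 47.0 FPKM in the control library. Hnrnpu, a nuclear scaffold protein, was at 370.5 and 411 FPKM in that order, and its relatives Hnrnpul1 and Hnrnpul2 at 135 and 145 FPKM and at 58.9 and 59.6 FPKM. Hnrnpr, a relative of the RNA-binding protein Syncrip, was at 52.4 FPKM in the JAK2 V617F and 55.8 FPKM in the control library. As deposited, 13 of the 17 hnRNP transcripts (76.5%, against 64.9% of the 1999 genes) lay below 0 and 4 above (median log2 ratio -0.09). After rescaling to the same sum, 6 lay below and 11 above (median 0.08). With the median of protein-coding genes, 9 lay below and 8 above (median -0.002), and with a trimmed mean 11 and 6 (median -0.03). The direction of the family thus rests on the scaling, and only rescaling to the same sum put its median above 0. Rows outside the rule gave similar values: the row of Hnrnpm with March2 was at 266 FPKM in the JAK2 V617F and 285 FPKM in the control library, Hnrpdl at 155 and 179 FPKM, and Hnrpll at 37.9 and 34.9 FPKM.

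**Figure D2:**
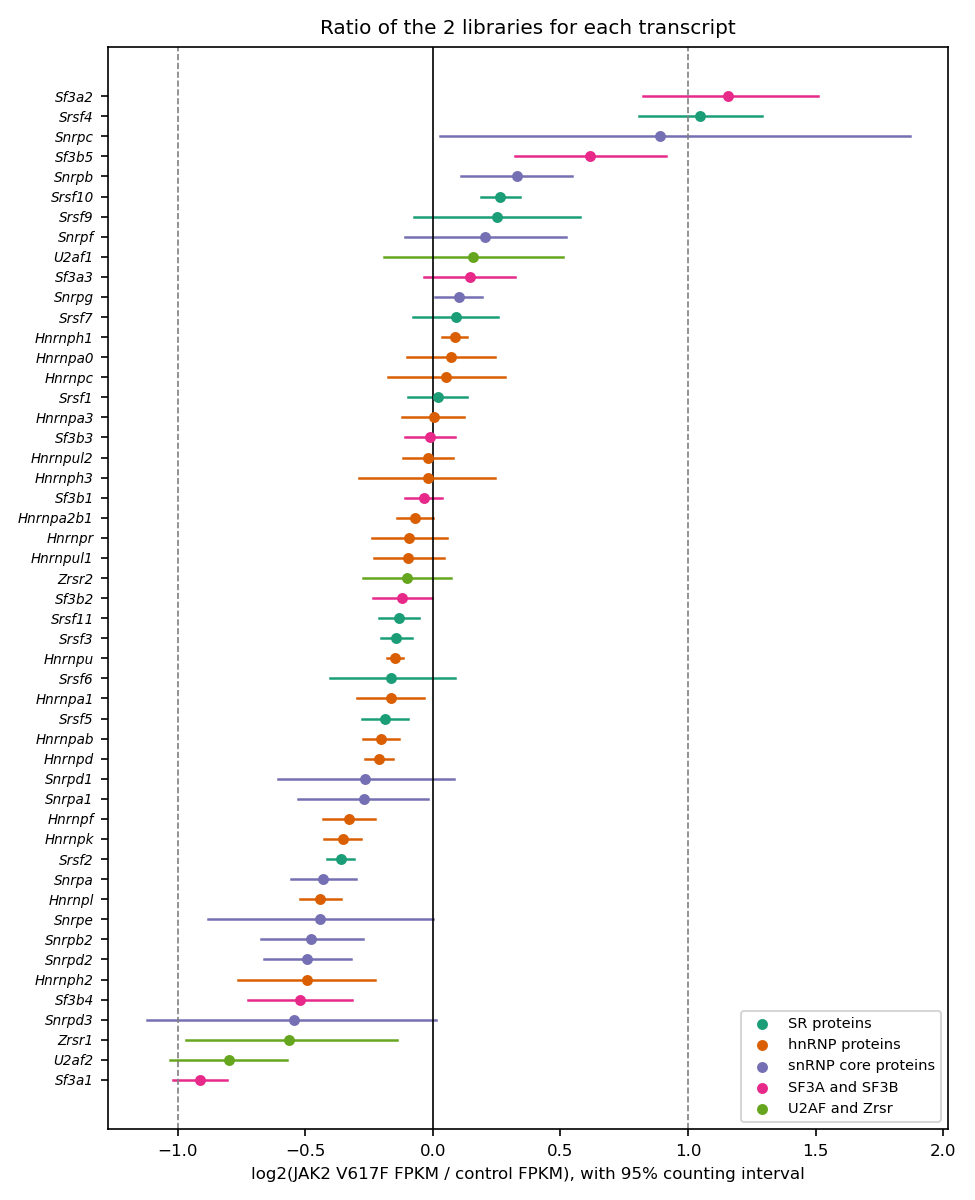
Log2 of the ratio of JAK2 V617F to control FPKM for each of the 50 transcripts, without a pseudocount, coloured by family. Bars are 95% intervals for counting error in the 2 libraries, computed from fragment numbers estimated on the shortest coding transcript. Dashed lines mark 2-fold. Sf3a2 and Srsf4 stand at the top and Sf3a1 and U2af2 at the bottom, while the hnRNP transcripts cluster near 0.

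Among the snRNP proteins, the Sm proteins B, D1, D2, D3, E, F and G form the ring that encloses the small nuclear RNAs of the major and minor spliceosome. Their transcripts differed widely in level. Snrpg was at 394 FPKM in the JAK2 V617F and 367 FPKM in the control library and was the highest of the 7 in both. The lowest was Snrpd3 at 28.8 FPKM in the JAK2 V617F library and Snrpf at 39.7 FPKM in the control. Snrpd1 was at 83.3 FPKM in the JAK2 V617F and 100.2 FPKM in the control library, Snrpd2 at 65.8 and 92.5 FPKM, Snrpd3 at 28.8 and 41.9 FPKM, and Snrpe at 68.6 and 93.3 FPKM. These 4 were lower in the JAK2 V617F library as deposited. The intervals of Snrpd1, Snrpd3 and Snrpe reached 1, and that of Snrpd2 did not (ratio 0.711, counting interval 0.632 to 0.800). In contrast Snrpb, which encodes the B proteins, was at 68.5 FPKM in the JAK2 V617F and 54.5 FPKM in the control library (ratio 1.26, counting interval 1.08 to 1.46), and Snrpf at 45.7 and 39.7 FPKM. Exons of Snrpf overlap Ccdc38 on the opposite strand over 85.4% of their length, so its value is uncertain, and the row of Ccdc38 was at 5.68 FPKM in the JAK2 V617F and 1.02 FPKM in the control library.

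Transcripts of 4 further snRNP proteins, Snrpa and Snrpc of U1 and Snrpa1 and Snrpb2 of U2, lay within 2-fold. Snrpa, the A protein of U1, was at 134 FPKM in the JAK2 V617F and 181 FPKM in the control library (ratio 0.743, counting interval 0.681 to 0.812). Snrpc, the C protein of U1 that helps it hold the 5′ splice site, was at 9.47 and 5.11 FPKM in that order, a log2 ratio of 0.78. That value rests on an estimated 35 and 16 fragments, and the counting interval of the ratio ran from 1.02 to 3.66. Of Snrpa, 29.9% of 31-base words are shared with transcripts of other genes, and BC024978 overlaps 11.0% of its exonic bases on the opposite strand. Snrpa1 and Snrpb2 encode the A′ and B″ proteins of U2. Snrpa1 was at 37.3 FPKM in the JAK2 V617F and 45.0 FPKM in the control library, and Snrpb2 at 32.1 and 44.6 FPKM. Over the 11 snRNP transcripts 4 were above 0 and 7 below (63.6%, against 64.9% of the 1999 genes). Their median log2 ratio of -0.26 stayed below 0 under the 3 rescalings (-0.09 to -0.20). The row that joins Snrpn, which encodes an imprinted B-like Sm protein, with Snurf was at 1.68 FPKM in the JAK2 V617F and 2.93 FPKM in the control library.

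SF3A held both the largest positive and the largest negative log2 ratio of the set. Sf3a2, whose protein contacts both the U2 snRNA and the pre-mRNA near the branch point, was at 67.3 FPKM in the JAK2 V617F and 30.2 FPKM in the control library. Its log2 ratio was 1.13, and the ratio of FPKM values was 2.23 (counting interval 1.77 to 2.85), from an estimated 259 and 100 fragments. Sf3a1, the largest SF3A subunit, was at 40.3 and 75.8 FPKM in the same order, a log2 ratio of -0.90 and a ratio of 0.531 (counting interval 0.494 to 0.571). Sf3a3, which with Sf3a1 and Sf3a2 completes the complex, was at 56.6 FPKM in the JAK2 V617F and 51.2 FPKM in the control library (ratio 1.11, counting interval 0.976 to 1.25). The order of the 3 transcripts was therefore Sf3a2, Sf3a3, Sf3a1 from high to low in the JAK2 V617F library and the reverse in the control.

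A ratio of subunits within a library does not depend on scaling between libraries. Sf3a2 over Sf3a1 was 1.67 (counting interval 1.46 to 1.91) in the JAK2 V617F and 0.399 (0.323 to 0.487) in the control library, a 4.2-fold difference. The pairs of subunits were picked after their values were seen. The row of Sf3a2 lies at chr10:80796100-80804924, where Plekhj1 overlaps 16.1% of its exonic bases on the opposite strand. Plekhj1 was at 21.6 FPKM in the JAK2 V617F and 23.2 FPKM in the control library. As strand use is not given, reads of this overlap could have been counted for either gene, and their part in the Sf3a2 values was not tested. Sf3a1 lies at chr11:4160350-4182541, with no exon of another gene over its own and 0.762% of its 31-base words in other genes' transcripts.

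SF3B, the part of the U2 snRNP that clamps the branch point, was more even. Sf3b1, its scaffold and the splicing gene most often mutated in human myelodysplastic syndromes, was at 86.6 FPKM in the JAK2 V617F and 88.8 FPKM in the control library (ratio 0.976, counting interval 0.928 to 1.03). Sf3b2, which contacts the pre-mRNA beside the branch point, was at 67.9 and 73.7 FPKM and Sf3b3, a beta-propeller protein that holds Sf3b1, at 67.0 and 67.4 FPKM, in that order. The small subunits Sf3b5 and Sf3b4 lay farther from 0. Sf3b5 was at 75.1 FPKM in the JAK2 V617F and 49.0 FPKM in the control library (ratio 1.53, counting interval 1.25 to 1.88), and Sf3b4, which binds next to the branch point, at 32.7 and 46.9 FPKM (ratio 0.696, counting interval 0.605 to 0.803). Of Sf3b4, 51.2% of 31-base words are shared, chiefly with the pseudogene Gm7935, whose own row was at 0 in both libraries. Of the 5 SF3B transcripts taken by symbol, the highest and lowest differed by 2.65-fold in the JAK2 V617F and 1.89-fold in the control library. Among these 5, Sf3b1 was highest and Sf3b4 lowest in both. Over the 8 SF3A and SF3B transcripts the median log2 ratio was -0.02 as deposited and above 0 under the 3 rescalings.

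**Figure D3:**
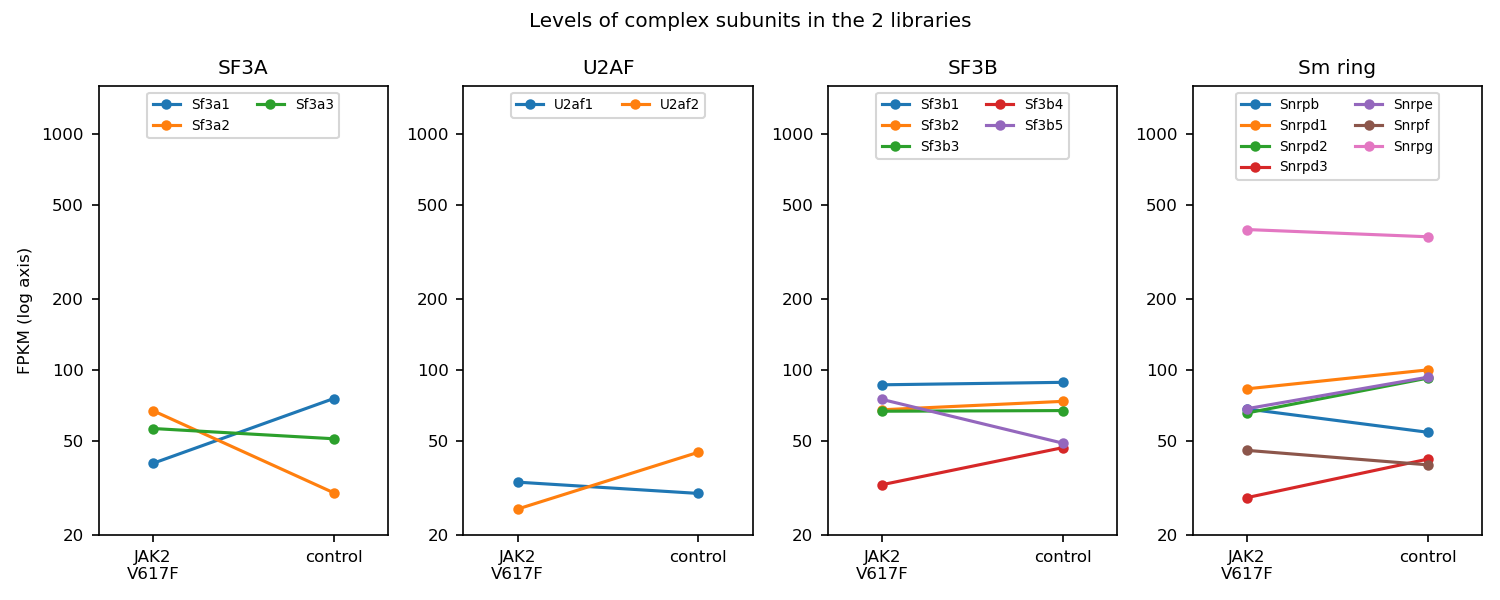
Level (FPKM, log axis) of subunits of SF3A, U2AF, SF3B and the Sm ring, as taken by symbol. The left point of each line is the JAK2 V617F library and the right point the control library. Lines of Sf3a1 and Sf3a2 cross, as do those of U2af1 and U2af2, while Sf3b1, Sf3b2, Sf3b3 and Snrpg run nearly flat.

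U2AF is a heterodimer whose large subunit, U2af2, binds the polypyrimidine tract and whose small subunit, U2af1, binds the AG at the intron end. U2af2 was at 25.8 FPKM in the JAK2 V617F and 44.9 FPKM in the control library, a log2 ratio of -0.78 and a ratio of 0.574 (counting interval 0.490 to 0.673). U2af1 was at 33.5 and 30.01 FPKM in the same order (ratio 1.12, counting interval 0.877 to 1.42). The small over the large subunit was 1.3 (counting interval 1.06 to 1.59) in the JAK2 V617F and 0.669 (0.542 to 0.821) in the control library. Both genes have processed copies elsewhere in the genome, and 25.8% of the 31-base words of U2af1 and 21.4% of those of U2af2 are shared with other transcripts. Zrsr2, which recognises the intron end in the minor spliceosome, was at 36.2 FPKM in the JAK2 V617F and 38.9 FPKM in the control library (ratio 0.932, counting interval 0.828 to 1.05). Zrsr1, an imprinted mouse retrocopy that sits inside Commd1, was at 3.29 and 4.86 FPKM (ratio 0.677, counting interval 0.511 to 0.907). Its counts cannot be fully parted from Commd1, whose row with B3gnt2 was at 116 FPKM in the JAK2 V617F and 76.8 FPKM in the control library. The row that joins U2af1l4, a relative of U2af1, with Tmem149 was at 36.2 and 29.7 FPKM.

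Spread around 0 was wider for lower transcripts. The 21 members with a mean of at least 100 FPKM had log2 ratios between -0.44 and 0.26 (SD 0.19). The 29 members below it ran from -0.90 to 1.13 (SD 0.49). Both transcripts past 2-fold and the 4 others past 1.5-fold belong to the second set.

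**Figure D4:**
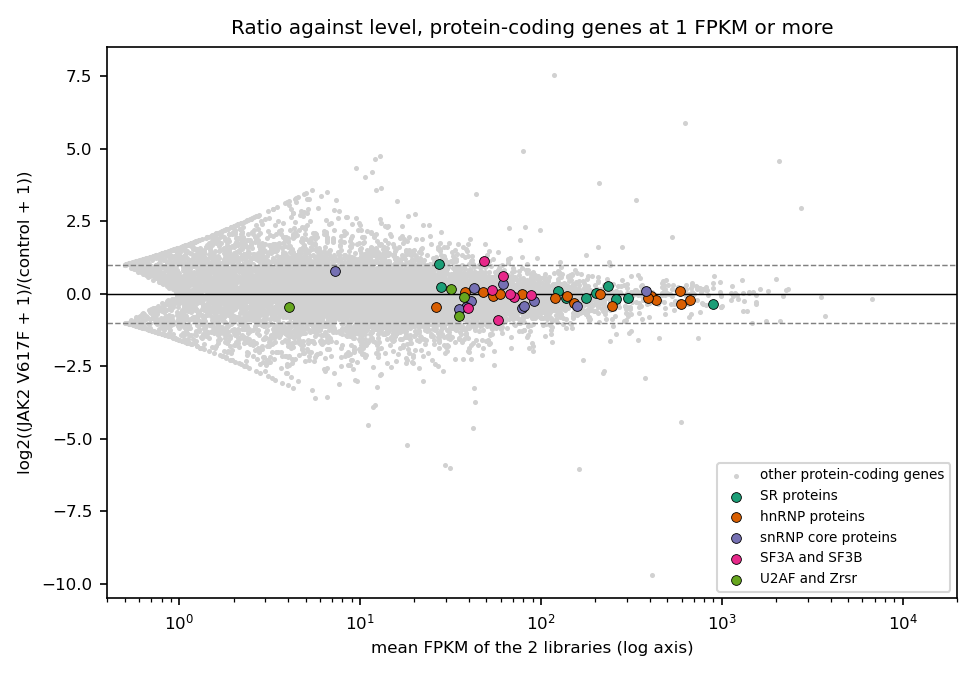
Log2((JAK2 V617F FPKM + 1)/(control FPKM + 1)) against mean FPKM (log axis) for protein-coding genes at 1 FPKM or more (grey) and the 50 transcripts by family (coloured), with dashed lines at 2-fold. Grey points fan out towards low levels, and the coloured points lie mostly inside the dense band, with Sf3a2 and Srsf4 at the upper dashed line.

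Further splicing genes gave a like picture. Of 177 genes at 1 FPKM or more in 10 other lists of the splicing pathway, each gene counted once and members left out, 6 were past 2-fold upward (3.39%) and 1 downward (0.565%), and the median log2 ratio was -0.14. The background shares given above are 13.7% and 11.3% of all rows, and 5.73% and 7.14% of protein-coding genes between the lowest and the highest level of the families. Among the 1999 genes they are 1.4% and 4.3%. The medians of these lists are as deposited, and the shift of 0.18 on rescaling to the same sum is larger than most of them. Rescaling to the median of protein-coding genes and by a trimmed mean gave smaller shifts, 0.093 and 0.066. Among 33 other snRNP and tri-snRNP proteins (1 higher, 0 lower, median -0.17), Prpf40b, a U1-associated protein, was at 27.8 FPKM in the JAK2 V617F and 10.4 FPKM in the control library. Prpf4, of the U4/U6 snRNP, was at 12.4 and 24.2 FPKM, and Prpf38b, the highest by mean level, at 194 and 203 FPKM. The list of 9 LSm proteins, most of which ring the U6 snRNA or act in mRNA decay, had 1 higher and 0 lower (median -0.17). Lsm5 was at 16.4 FPKM in the JAK2 V617F and 6.30 FPKM in the control library, Lsm1 at 5.37 and 8.96 FPKM and Lsm2 at 260.3 and 359 FPKM.

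The minor spliceosome list, 9 genes with Zrsr2 among them (1 higher, 0 lower, median -0.10), held a transcript that entered through the JAK2 V617F library alone. Zmat5, a protein of the U11/U12 snRNP, was at 7.77 FPKM in the JAK2 V617F and 0.996 FPKM in the control library (log2 ratio 2.14). Being under 1 FPKM in the control, it could reach the list only by being higher in the other library, and it is the 1 counted. Zcrb1, of the same particle, was at 67.3 FPKM in the JAK2 V617F and 101 FPKM in the control library. Of 23 Prp19 and second-step factors (2 higher, 1 lower, median -0.06), the helicase Dhx16 was at 91.5 and 40.5 FPKM in that order (log2 ratio 1.16), and the Prp19-complex protein Bcas2 at 23.0 and 50.7 FPKM (-1.10). Dhx15, a helicase that releases the spliced intron, was at 94.1 FPKM in the JAK2 V617F and 94.2 FPKM in the control library. None of 21 SR-related proteins and SR kinases passed 2-fold (median -0.15). In that list the kinase Clk4, which phosphorylates SR proteins, was at 96.8 and 153 FPKM, the muscle kinase Srpk3 at 4.43 and 2.88 FPKM and the coactivator Srrm1 at 287 and 354 FPKM.

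None of 38 other regulators of alternative splicing passed 2-fold on the log2(FPKM + 1) scale (median -0.10). For Mbnl2 (log2 ratio 0.98) and Rbm24 (0.95) that rests on the pseudocount, since their FPKM values themselves differ by more than 2-fold. Rbm24, under 1 FPKM in the control, could reach the list only by being higher in the JAK2 V617F library. Nothing is read from its ratio. Ptbp1, the polypyrimidine tract binding protein, was at 369 FPKM in the JAK2 V617F and 436 FPKM in the control library, Mbnl2, a muscleblind protein, at 31.5 and 15.5 FPKM, and Rbm24, a muscle splicing factor, at 1.51 and 0.298 FPKM. Among 14 genes of the exon junction complex and nonsense-mediated decay (0 past 2-fold, median -0.22), Smg9 was at 32.0 and 63.2 FPKM, Smg8 at 17.4 and 10.4 FPKM, and the helicase Eif4a3 at 152 and 119 FPKM. Smg8 and Smg9 bind the decay kinase Smg1 as a pair. In snRNP assembly (13 genes, 1 higher, 0 lower, median 0.01), Snupn, which imports snRNPs to the nucleus, was at 11.6 FPKM in the JAK2 V617F and 5.06 FPKM in the control library, Gemin5, which selects snRNAs, at 30.1 and 54.4 FPKM, and Prmt5, the Sm protein methyltransferase, at 87.2 and 128 FPKM. Neither the 11 paraspeckle and matrix RNA-binding proteins (median -0.05) nor the 12 mRNA export factors (median -0.24) held one past 2-fold. The paraspeckle protein Sfpq was at 340.2 FPKM in the JAK2 V617F and 396 FPKM in the control library, and the helicase Dhx9 at 75 and 90.7 FPKM. Ddx39b, a helicase that loads export factors, was at 203 and 242 FPKM in that order, and the THO subunits were lower in level, Thoc3 at 13.3 and 20.8 FPKM, and Thoc5 at 14.4 and 20.5 FPKM. The 12 proliferation genes were all below 0 in these libraries as deposited, at a median log2 ratio of -0.24. Of all rows 51.8% were below 0, and of the 1999 genes 64.9%. The shift of 0.18 on rescaling to the same sum is larger in size than the log2 ratios of Pcna (-0.12) and Top2a (-0.16), but not than the others. The part of the proliferation genes in the splicing lists was not tested.

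**Figure D5:**
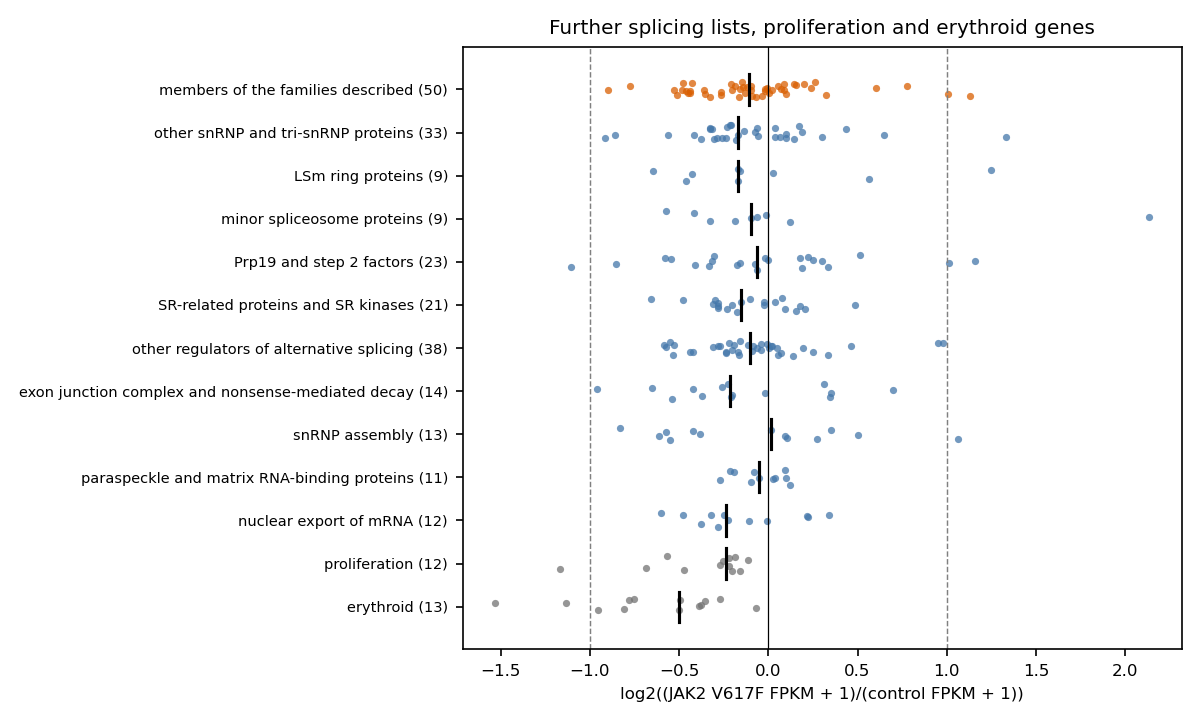
Log2((JAK2 V617F FPKM + 1)/(control FPKM + 1)) of single genes in the families described (orange), in 10 further splicing lists (blue) and in proliferation and erythroid genes (grey), with the number of genes in brackets, black bars at the median and dashed lines at 2-fold. Splicing lists centre between -0.24 and 0.01, with few genes beyond the dashed lines.

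The splicing genes mutated in myeloid neoplasms were all within 2-fold in these sorted cells, where 5.7% of the 1999 genes above were past 2-fold in either direction. As deposited, 6 were below 0 and 1 above, and 64.9% of the 1999 genes were below 0. Nothing particular to these 7 can be read from these counts. Besides Sf3b1, Srsf2, U2af1 and Zrsr2, the list held Prpf8, the catalytic scaffold of the spliceosome, at 164 FPKM in the JAK2 V617F and 205 FPKM in the control library. Luc7l2, which is associated with the U1 snRNP, was at 84.9 and 95.6 FPKM, and the helicase Ddx41 at 16.9 and 24.2 FPKM, in the same order. These values are transcript levels and say nothing of mutation.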

How the data were processed

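RNA of sorted cells was amplified with the Ovation RNA-Seq System v2 and made into libraries with a TruSeq DNA kit, per the labels' protocols. The authors deposited 1 FPKM value per gene row and library. The submitters' processing notes list Cufflinks, Bowtie2 2.0.6, TopHat2 2.0.7 and cutadapt 1.2.1, and the build GRCm38. For annotation, strand use and scaling between libraries, the answer is not given in the sources used here. FPKM is no count, so no count test was run, and 1 library per group allows no test. Log2 ratios used a pseudocount of 1 FPKM, a filter of 1 FPKM in at least 1 library and a threshold of 2-fold.

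Depth was estimated from steps in low FPKM values of 3438 single-transcript genes of at least 600 nt, with an effective length shorter by 170 nt, picked to sharpen the steps. Of genes below 3.5 fragments, 82.3% in the JAK2 V617F and 83.6% in the control library lay within 0.2 of a whole number. A single fragment on 2 kb was worth 0.0869 and 0.101 FPKM. Each member's number of fragments was estimated from its shortest protein-coding transcript in the basic set of GENCODE vM21, or the row's locus, if shorter. It gave an exact (Clopper-Pearson) 95% interval of the ratio. Shorter transcripts of other classes were not used, so the true number can be lower and the interval wider. These intervals are approximate. PCR copies were not separable. On simulated data the method recovered the worth of a fragment closely but picked another offset, so the offset is only loosely known. Overlap and shared words of 31 bases were read from GENCODE vM21. Python 3.11.15, pandas 2.3.3 and SciPy 1.17.1 were used.

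The members, lists and rules were chosen with earlier results of these data known. All members are named, with, of each further list, the 2 genes of largest change and the most abundant. Of these lists' genes, those without a row of their own were left out. The planned protein sequences were not used here. Alternatives were other pseudocounts, filters, scalings, a 1.5-fold threshold and the inclusion of rows naming several genes.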

Additional observations from a re-analysis of the deposited data

How the results depend on the processing

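No paired analysis was possible because there was 1 library per genotype. As deposited, 2 members were at least 2-fold higher, 0 were lower, the median log2 ratio was -0.11 and the summed FPKM of JAK2 V617F over control was 0.906. With a pseudocount of 5 FPKM, 1 was past 2-fold, since Srsf4 dropped to 0.87, and the median was -0.10. Rescaling to the same sum, to the median of protein-coding genes and by a trimmed mean gave medians of 0.066, -0.017 and -0.043 and sum ratios of 1.02, 0.966 and 0.948, with the counts as before. The median was -0.10 with no filter, at 5 FPKM, and with rows naming several genes, where the sum ratio was 0.908. At 1.5-fold, 6 members were called, 4 higher and 2 lower. An alternative chosen after seeing the data kept the 20 members with no exon overlap and at most 10% of 31-base words shared. Of these, 0 were past 2-fold, because Sf3a2 and Srsf4 were not among them. Their median was -0.079 and their sum ratio 0.968. The share of calls in either direction was 25% of all rows, 18.7% of protein-coding genes and 12.9% of those between the lowest and the highest member. Depth limits Snrpc and Zrsr1, the transcripts of lowest level.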
